A study of Mus musculus with 14 samples.

Results

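The 4 libraries described here are MC38 cells given a RIG-I agonist and MC38 cells given a control agonist, 2 libraries each, out of 14 libraries in the series. They were chosen by the names of their columns in the MC38 table, matched to the sample labels. MC38 is a colon adenocarcinoma line derived from C57BL/6 mice. Per the labels, both groups were seeded at 100000 cells per well in DMEM with serum, received 0.5 ug/ml of their agonist and were harvested 24 h later, and no engineered allele was named for either. What the agonists consist of and how they were delivered is not given in the sources used here. Cells without any agonist were not analysed here, so every fold change has the control agonist as its baseline. The remaining libraries came from the same 2 treatments in CT26, a colorectal line of BALB/c mice with 3 libraries per agonist, and in E0771, a mammary line of C57BL/6 mice with 2 per agonist. They enter below in a fit of all 14 libraries, in tests of differences between lines, and where the same genes or lists are set side by side in the 3 lines.

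RIG-I is a cytosolic helicase that binds short double-stranded RNA with a phosphorylated end and signals through the mitochondrial adaptor MAVS to the kinases and transcription factors that switch on type I interferon genes. Secreted interferon binds its receptor and, through JAK kinases and transcription factors of the STAT and IRF families, induces interferon-stimulated genes, which include the sensors themselves, antiviral effectors, antigen presentation genes and chemokines. Tumour cells in which this pathway is active are known to present more antigen on MHC class I and to secrete chemokines that attract T cells.

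Total counts were 12347361 and 18964563 in the RIG-I agonist libraries and 15576426 and 13021023 in the control agonist libraries. Libraries of 1 group differed by more than sampling noise, with a chi-square per degree of freedom of 2.36 in the RIG-I agonist group and 2.2 in the control agonist group. In edgeR's fit the genes had a biological coefficient of variation of 0.0304. The labels name no separate cultures for the libraries, so the spread behind the p-values is that of libraries and may be technical. Defining epithelial genes were absent: Epcam, Krt18, Cdx1, Cdx2 and 4 others of 22 epithelial and colon markers had no count in any MC38 library, and the list's summed level of 188 and 191 CPM (read counts scaled to a common library size) with the RIG-I agonist, against 185 and 182 CPM with the control agonist, lay mostly in Tjp1, a tight junction scaffold found in many cell types. Mesenchymal markers were present in part, 11 of 15 at 1 CPM or more, with summed levels of 2550 and 2470 CPM with the RIG-I agonist and 2950 and 2950 CPM with the control agonist. Most of that was Vim, with 1630 and 1580 CPM with the RIG-I agonist, and Cd34, with 608 and 584 CPM. In the first RIG-I agonist library Col3a1 stood at 57.0 CPM and Pdgfra at 36.1 CPM, whereas Col1a1 stood at 1.71 CPM and Acta2 at 0. Leukocyte markers summed to 45.7 and 46.1 CPM with the RIG-I agonist and 30.8 and 32.3 CPM with the control agonist, most of it Cd14, and Ncr1, Nkg7, Tyrobp, Ly6g, Klrb1c and S100a9 had no count. The data thus come from cells with a colon label and without most colon epithelial transcripts, and the part of marker differences in the results below was not tested. In bulk RNA, fewer cells of a kind and less RNA per cell cannot be told apart.

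Many genes differed between the agonists, and most differed by little. Of 12387 genes tested, 2338 (18.9%) were higher and 2099 (16.9%) were lower with the RIG-I agonist at an adjusted p under 0.05 in edgeR's quasi-likelihood test, 35.8% in all. The median change was 0.28 on the log2 scale among the higher genes, which is 1.22-fold, and -0.33 among the lower genes, which is 0.795-fold. The values of RIG-I agonist and control agonist libraries were fully separated in all 4437 called genes, and likewise in 67.2% of all genes tested. At least 2-fold changes were seen in 252 higher and 128 lower genes. The counts depend on how the spread is estimated: DESeq2 called 1268 higher and 988 lower, and a fit of all 14 libraries with a shared spread called 624 and 374.

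**Figure D1:**
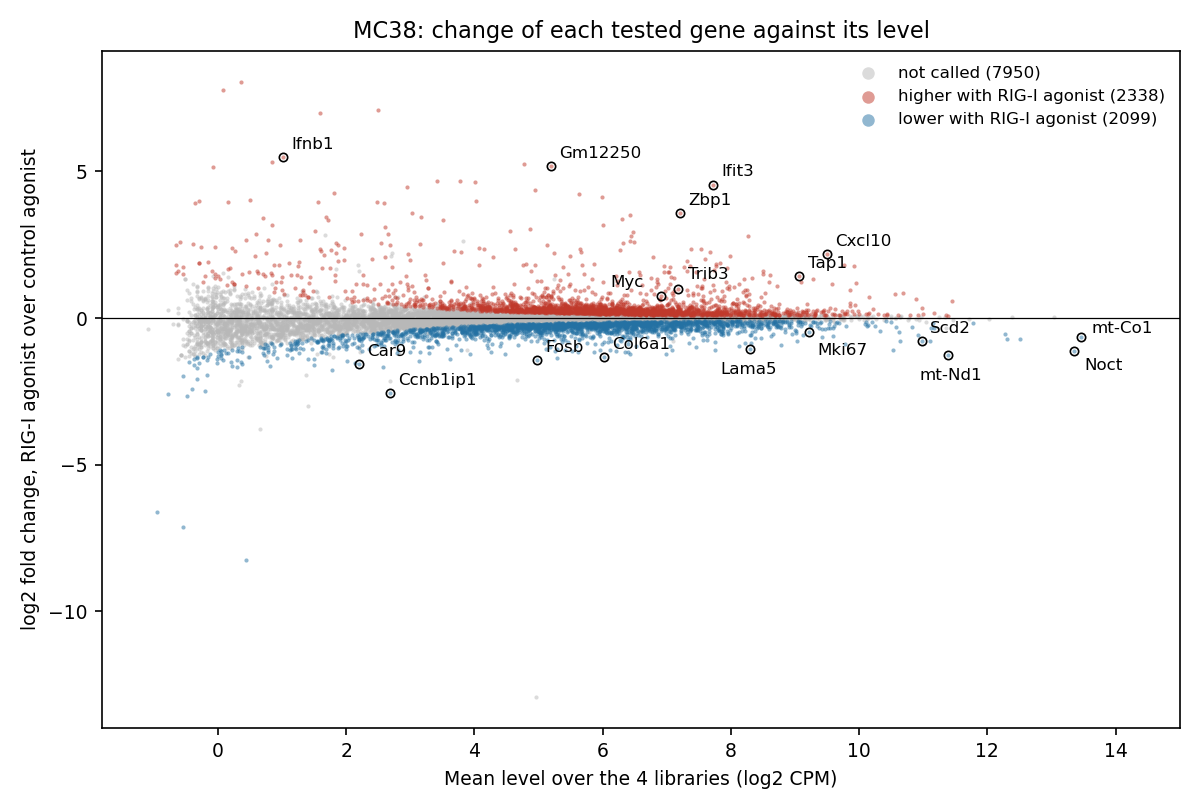
Log2 fold change of each of the 12387 tested genes in MC38, RIG-I agonist over control agonist, against its mean level over the 4 libraries in log2 CPM. Points are genes, coloured by whether they were called higher (2338), lower (2099) or not called (7950). Labelled genes with large rises include Ifnb1 at a mean log2 CPM of 1.01 and Cxcl10 at 9.5. Labelled falls of abundant genes include Noct, mt-Nd1 and Lama5 at about -1, smaller than that of Ccnb1ip1 (log2 -2.56), a gene of low level.

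Immune genes held a large share of the large rises and few of the falls. The 11 lists of RNA sensing, interferon, antiviral, antigen presentation, chemokine, cytokine and checkpoint genes, with related family members, held 295 tested genes, of which 199 were higher and 16 lower, with a median log2 fold change of 0.86. Among them 77 rose 2- to 4-fold and 57 rose over 4-fold, so they held 134 of the 252 genes at least 2-fold higher and 1 of the 128 at least 2-fold lower. The other 118 rises and 127 falls of that size lay outside these lists. The lists need not hold every interferon-inducible gene, and which changes outside them belong to that response was not tested. Outside these lists, 2139 of 12092 genes were higher (17.7%) and 2083 lower (17.2%), with a median of -0.01. Of those called, 83.8% changed by under 1.5-fold. Outside the immune lists, 1874 rises and 1664 falls were under 1.5-fold, and 147 and 292 were 1.5- to 2-fold. A further 79 and 118 changed 2- to 4-fold, and 39 and 9 over 4-fold. The median over all genes tested was -0.005. It was -0.21 in the lowest eighth of genes by level and 0.03 in the highest eighth.

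**Figure D2:**
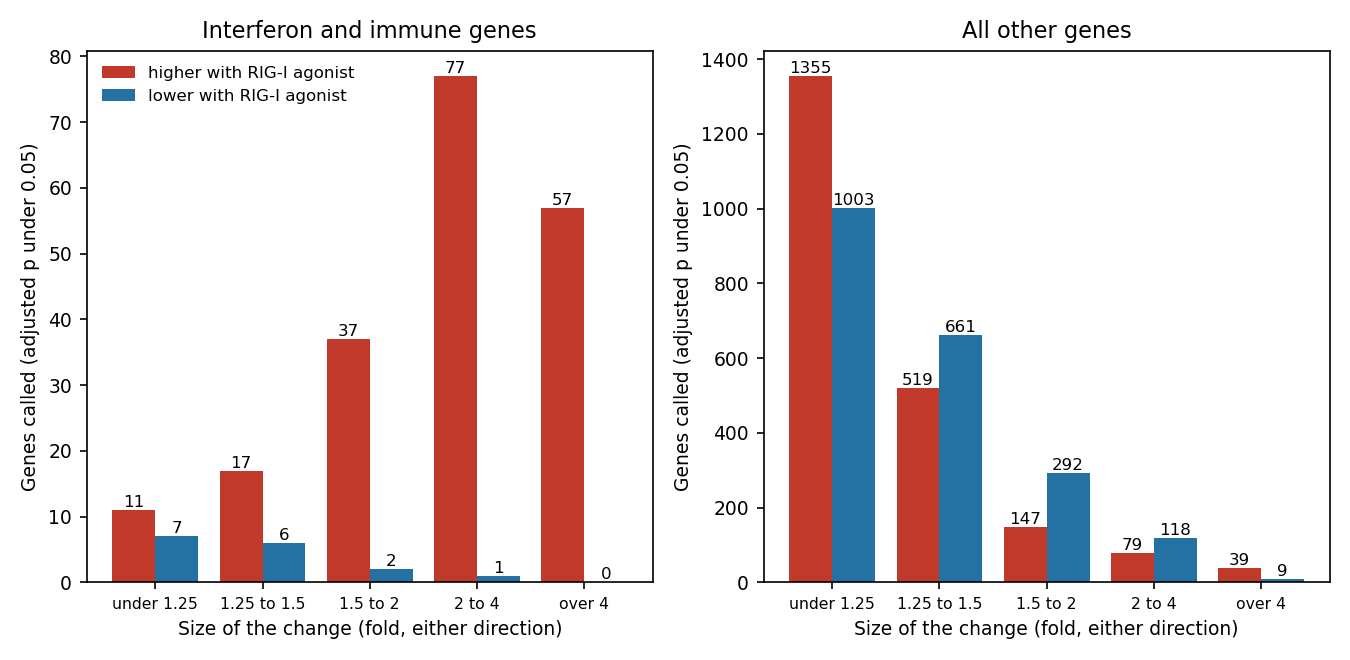
Number of called MC38 genes by size of change, RIG-I agonist over control agonist, in genes of the immune lists and in all other genes. Red bars count higher genes and blue bars lower genes, each with its number above it, and the panels have different vertical scales. In the immune lists the fullest class is 2- to 4-fold higher (77 genes), and in the other genes it is the class of smallest changes in both directions (1355 higher and 1003 lower).

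The sensors of the pathway rose while its adaptor and constitutive transcription factor did not. Ddx58, which encodes RIG-I (chromosome 4, 40203773 to 40239828), had 383 and 382 CPM with the RIG-I agonist and 222 and 222 CPM with the control agonist (log2 fold change 0.79, SE 0.034, adjusted p = 6.17e-14). Ifih1, the gene of the related sensor MDA5, had 149 and 157 CPM with the RIG-I agonist and 74.3 and 72.9 CPM with the control agonist (log2 1.06). Both sensors were thus already well measured under the control agonist, and the groups did not overlap. Dhx58, which encodes the regulator LGP2, had 136 and 134 CPM with the RIG-I agonist, against 22.1 and 23.3 CPM with the control agonist (log2 2.57, SE 0.058, adjusted p = 5.49e-19). Zbp1, which senses nucleic acids in the Z form and can start necroptosis, had 271 and 267 CPM with the RIG-I agonist, against 22.6 and 22.2 CPM with the control agonist (log2 3.58, SE 0.051, adjusted p = 3.23e-22). Zbp1 and Dhx58 therefore changed more than the RIG-I gene. Mavs, the adaptor, had 74.1 and 69.5 CPM with the RIG-I agonist and 64.5 and 65.4 CPM with the control agonist (log2 0.14, adjusted p = 0.0503), so it missed the threshold although its libraries did not overlap. Irf3, the transcription factor that acts before any interferon is made, had 36.9 and 34.1 CPM with the RIG-I agonist, against 40.0 and 42.1 CPM with the control agonist (log2 -0.22, adjusted p = 0.0202), a call that was lost without the second library of either group. Irf7, its interferon-inducible relative, had 157 and 148 CPM with the RIG-I agonist and 26.3 and 24.4 CPM with the control agonist (log2 2.58, adjusted p = 6.96e-19). Of 16 RNA-sensing genes tested, 9 were higher and 2 lower, with a median of 0.57; the lower count was 1 without the second control agonist library and 0 without the second RIG-I agonist library.

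Interferon transcripts were present at low counts. Ifnb1, the gene of interferon beta (chromosome 4, 88522025 to 88522774), had 42 and 69 counts with the RIG-I agonist, against 0 and 2 with the control agonist, a ratio of 50.7 after adjusting for depth, for which counting error alone gives a 95% interval of 13.7 to 424. Ifna4, an interferon alpha gene, had 14 and 23 counts with the RIG-I agonist and 2 and 0 with the control agonist (ratio 16.9, interval 4.36 to 145). Of 20 type I and III interferon genes these were the only 2 with enough counts to test, both were called, and 15 had no count in any MC38 library. In CPM, Ifnb1 stood at 3.42 and 3.63 with the RIG-I agonist. Ifna4 stood at 1.14 and 1.21 CPM with the RIG-I agonist, and its family members share sequence, so reads can be divided among them. DESeq2 called 1 of the 2 genes.

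Among the genes that carry the interferon signal, the receptor and kinase genes Ifnar1, Ifnar2, Jak1 and Tyk2, looked up after the values were seen, were not called. Stat2, a transcription factor of the pathway, rose, with 284 and 291 CPM with the RIG-I agonist and 128 and 137 CPM with the control agonist (log2 1.12). Usp18, which removes ISG15 from proteins and damps the receptor, had 342 and 329 CPM with the RIG-I agonist, against 100 and 94.6 CPM with the control agonist (log2 1.78). In both genes the control libraries were far apart from the RIG-I agonist libraries and close to each other. Ifngr1, a chain of the interferon gamma receptor, was the 1 member of the list that fell, with 30.4 and 33.0 CPM with the RIG-I agonist and 40.9 and 41.2 CPM with the control agonist (log2 -0.36, adjusted p = 0.000329). Of 19 tested receptor, JAK, STAT, IRF and SOCS genes, 11 were higher and 1 lower, with a median of 0.36.

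Antiviral effector genes rose in nearly every member. Of 81 tested, 77 were higher and 2 lower, with a median log2 fold change of 1.36, and together they held 1.90% and 1.91% of all counts with the RIG-I agonist, against 0.765% and 0.768% with the control agonist. Ifit3, whose protein belongs to a family that binds foreign RNA, had 398 and 402 CPM with the RIG-I agonist and 18.4 and 15.5 CPM with the control agonist (log2 4.55, SE 0.056, adjusted p = 5.65e-23). Its neighbour and near copy Ifit3b had 115 and 120 CPM with the RIG-I agonist, against 7.14 and 6.14 CPM with the control agonist (log2 4.14). Ifit3 and Ifit3b share 65.4% and 52.5% of their sampled 31-base words with other genes, so the division of reads between them is uncertain. Rsad2, which encodes viperin, had 1470 and 1510 CPM with the RIG-I agonist, against 440 and 438 CPM with the control agonist (log2 1.76), and Isg15, a ubiquitin-like modifier, had 387 and 364 CPM with the RIG-I agonist, against 114 and 116 CPM with the control agonist (log2 1.71). Both were abundant under the control agonist too. Slfn1, a Schlafen family gene, had 31 and 38 counts with the RIG-I agonist and none with the control agonist, at least 21-fold higher by a floor of 3 counts over the control group. The 2 that fell were Ifi27, with 81.4 and 72.3 CPM with the RIG-I agonist and 181 and 177 CPM with the control agonist (log2 -1.23, adjusted p = 3.75e-14), and Ifitm1, with 22.9 and 23.7 CPM with the RIG-I agonist and 32.0 and 30.6 CPM with the control agonist (log2 -0.42). The gene names of both place them among interferon-induced genes, and they moved against 77 others of the list.

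The interferon-inducible GTPases, which attack the vacuoles of intracellular pathogens, also rose in most members, 18 of 20 higher and none lower, with a median of 2.57. Gm12250, a GTPase locus annotated as a processed pseudogene (chromosome 11, 58187739 to 58189012), had 70.2 and 68.2 CPM with the RIG-I agonist, against 2.25 and 1.46 CPM with the control agonist (log2 5.19, SE 0.12, adjusted p = 7.82e-19). Tgtp1 had 143 and 142 CPM with the RIG-I agonist and 14 and 13.7 CPM with the control agonist (log2 3.36), and it shares 85.0% of its 31-base words with other genes. The cytosolic DNA sensing list also rose, 12 of 14 with none lower and a median of 1.71, led by genes of the Ifi200 cluster on chromosome 1, whose proteins bind DNA. Ifi206 had 51.9 and 51.8 CPM with the RIG-I agonist, against 1.22 and 1.54 CPM with the control agonist (log2 5.24), and Ifi207 had 92.0 and 91.5 CPM with the RIG-I agonist, against 4.95 and 4.84 CPM with the control agonist (log2 4.22). Ifi206 and Ifi207 share 36.2% and 16.2% of their 31-base words with other genes. Ms4a4d, a membrane protein gene on no list, had a large rise too, with 139 and 191 counts with the RIG-I agonist and 0 and 2 with the control agonist (ratio 151, interval 41.4 to 1250). The set of the 15 largest rises also held Ifi209 and Ifi205 of the same cluster (log2 4.64 and 4.37, with 44.0% and 25.7% shared words), Gm12185 (log2 4.66, 29.4% shared), Olfr56 (log2 3.99), Gm4070 (log2 4.46), the chemokine gene Cxcl9 and 1 gene without a symbol, which like Ms4a4d rests on very few control counts. Gm4070 shares 98.4% of its 31-base words with other genes, and its call was lost without either RIG-I agonist library.

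Upstream sequences of rising antiviral genes carried the letters that interferon-activated factors are known to bind. Sequences of 4 genes are shown because they belong to the largest rises of the antiviral and GTPase lists with such letters in the 200 bases before the RefSeq start. Sequences are from RefSeq (GRCm38.p6), 5′ to 3′ on the strand of the gene, and capitals mark GAAANNGAA or its reverse complement. Ifit3 (chr19:34583329-34583528, plus strand) and Ifit3b (chr19:34607757-34607956, plus strand) held 3 matches each, Phf11b (chr14:59341331-59341530, minus strand) held 1 and Gm12250 (chr11:58183643-58183842, plus strand) held 2. The counted Gm12250 locus begins at 58187739, so its RefSeq window lies upstream of that locus and not next to it.
Ifit3: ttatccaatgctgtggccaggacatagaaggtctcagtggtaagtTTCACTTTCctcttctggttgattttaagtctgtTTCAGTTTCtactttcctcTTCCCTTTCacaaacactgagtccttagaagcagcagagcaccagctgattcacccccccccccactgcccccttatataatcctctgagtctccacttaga
Ifit3b: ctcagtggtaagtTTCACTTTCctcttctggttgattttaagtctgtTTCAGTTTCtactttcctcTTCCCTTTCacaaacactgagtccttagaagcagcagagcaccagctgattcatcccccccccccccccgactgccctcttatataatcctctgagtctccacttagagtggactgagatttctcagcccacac
Phf11b: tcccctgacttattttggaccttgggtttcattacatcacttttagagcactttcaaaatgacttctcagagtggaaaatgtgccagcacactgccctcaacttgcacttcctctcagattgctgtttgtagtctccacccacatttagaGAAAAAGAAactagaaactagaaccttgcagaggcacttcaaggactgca
Gm12250: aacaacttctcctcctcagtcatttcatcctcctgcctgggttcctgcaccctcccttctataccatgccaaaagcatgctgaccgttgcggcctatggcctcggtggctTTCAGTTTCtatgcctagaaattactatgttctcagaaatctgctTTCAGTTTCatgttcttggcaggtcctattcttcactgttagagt
The upstream sequences of Ifit3 and Ifit3b repeat each other over the matched stretch. Phf11b, a PHD finger gene, had 5.94 and 5.10 CPM with the RIG-I agonist, against 0.386 and 0.614 CPM with the control agonist (log2 3.46), and shares 59.7% of its 31-base words with other genes.

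The share of promoters with these letters was larger in classes of larger rises. Promoters were the RefSeq windows of 250 bases before to 50 bases after the start, found for 9281 of the tested genes, and both strands were searched. GAAANNGAA stood in 52.6% of the promoters of genes that were over 4-fold higher (30 of 57), 34.5% of those 2- to 4-fold higher (38 of 110) and 16.5% of those 1.5- to 2-fold higher (22 of 133). In the genes that rose by under 1.5-fold the share was 7.16% (108 of 1509), next to 7.26% over all tested genes and 8.57% over all 27025 promoters. It was 4.4% in genes at least 1.5-fold lower (12 of 273). By list, 11 of 13 GTPase promoters (84.6%) and 33 of 66 antiviral promoters held the letters. TGACTCA, the letters bound by FOS-JUN dimers, stood in 12.3% of promoters in the class over 4-fold higher and 14.5% in the class 2- to 4-fold higher, against 3.40% of all tested. A match is a description of the letters and not a measured site.

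Genes of MHC class I presentation rose as a group, 22 of 27 tested, with 1 lower and a median of 0.85. Tap1, a subunit of the peptide transporter of the endoplasmic reticulum (ER), had 792 and 774 CPM with the RIG-I agonist and 287 and 294 CPM with the control agonist (log2 1.43, SE 0.034, adjusted p = 1.38e-18). Psmb10, a subunit of the immunoproteasome, had 567 and 525 CPM with the RIG-I agonist, against 176 and 179 CPM with the control agonist (log2 1.62). B2m, the light chain of class I molecules, had 1380 and 1370 CPM with the RIG-I agonist and 607 and 588 CPM with the control agonist (log2 1.21, adjusted p = 1.95e-17). Transporter, protease and light chain thus moved together, and Nlrc5, the transactivator of class I genes, was also higher (log2 1.27). H2-K1, a class I heavy chain, had 1970 and 1880 CPM with the RIG-I agonist, against 1110 and 1080 CPM with the control agonist (log2 0.82), a smaller change than that of Tap1, and this call was lost in the fit of all 14 libraries; H2-K1 shares 22.6% of its words with other genes. Canx, the chaperone calnexin, was the member that fell, with 2130 and 2160 CPM with the RIG-I agonist and 2420 and 2400 CPM with the control agonist (log2 -0.17). The constitutive proteasome, whose subunits are not part of the interferon response, had 16 of 34 genes higher and 1 lower with a median of 0.09; 9 to 16 were higher when 1 library was left out.

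Of 14 chemokine genes tested, 10 were higher and 1 lower, with a median of 1.2. Cxcl10, a ligand of CXCR3 on T cells, had 1180 and 1190 CPM with the RIG-I agonist, against 263 and 262 CPM with the control agonist (log2 2.18, SE 0.034, adjusted p = 2.14e-21). Ccl5, a chemokine that attracts T cells, had 60.7 and 51.2 CPM with the RIG-I agonist and 21.4 and 18.4 CPM with the control agonist (log2 1.47). Cxcl11, another CXCR3 ligand, had 24.9 and 25.4 CPM with the RIG-I agonist, against 0.965 and 0.998 CPM with the control agonist (log2 4.67). The level of Cxcl10 under the control agonist was already high, whereas Cxcl11 was near 1 CPM. Cxcl9, the remaining CXCR3 ligand, had 5.78 and 6.47 CPM with the RIG-I agonist, against 0.322 and 0.307 CPM with the control agonist (log2 4.25, SE 0.33, adjusted p = 1.06e-09). Cx3cl1, fractalkine, was the chemokine that fell, with 13.3 and 12.3 CPM with the RIG-I agonist and 24.1 and 24.3 CPM with the control agonist (log2 -0.93, adjusted p = 9.15e-08). Il6 was at 1.71 and 1.74 CPM with the RIG-I agonist and 0.322 and 0.384 CPM with the control agonist (log2 2.27), and 20 of 27 cytokine and NF-kB target genes were higher with 1 lower. Among 15 checkpoint and NK receptor ligand genes, 4 were higher and 2 lower, with a median of 0.0, where 18.9% and 16.9% of all genes were. The lower count moved when single libraries were left out, and the list as a whole is not read as rising. Cd274, which encodes PD-L1, had 67.1 and 62.2 CPM with the RIG-I agonist, against 23 and 22.5 CPM with the control agonist (log2 1.5, SE 0.07, adjusted p = 1.92e-13). Ulbp1, a ligand of the activating NK receptor NKG2D, had 6.67 and 8.52 CPM with the RIG-I agonist and 15.1 and 11.4 CPM with the control agonist (log2 -0.78, adjusted p = 0.000669).

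**Figure D3:**
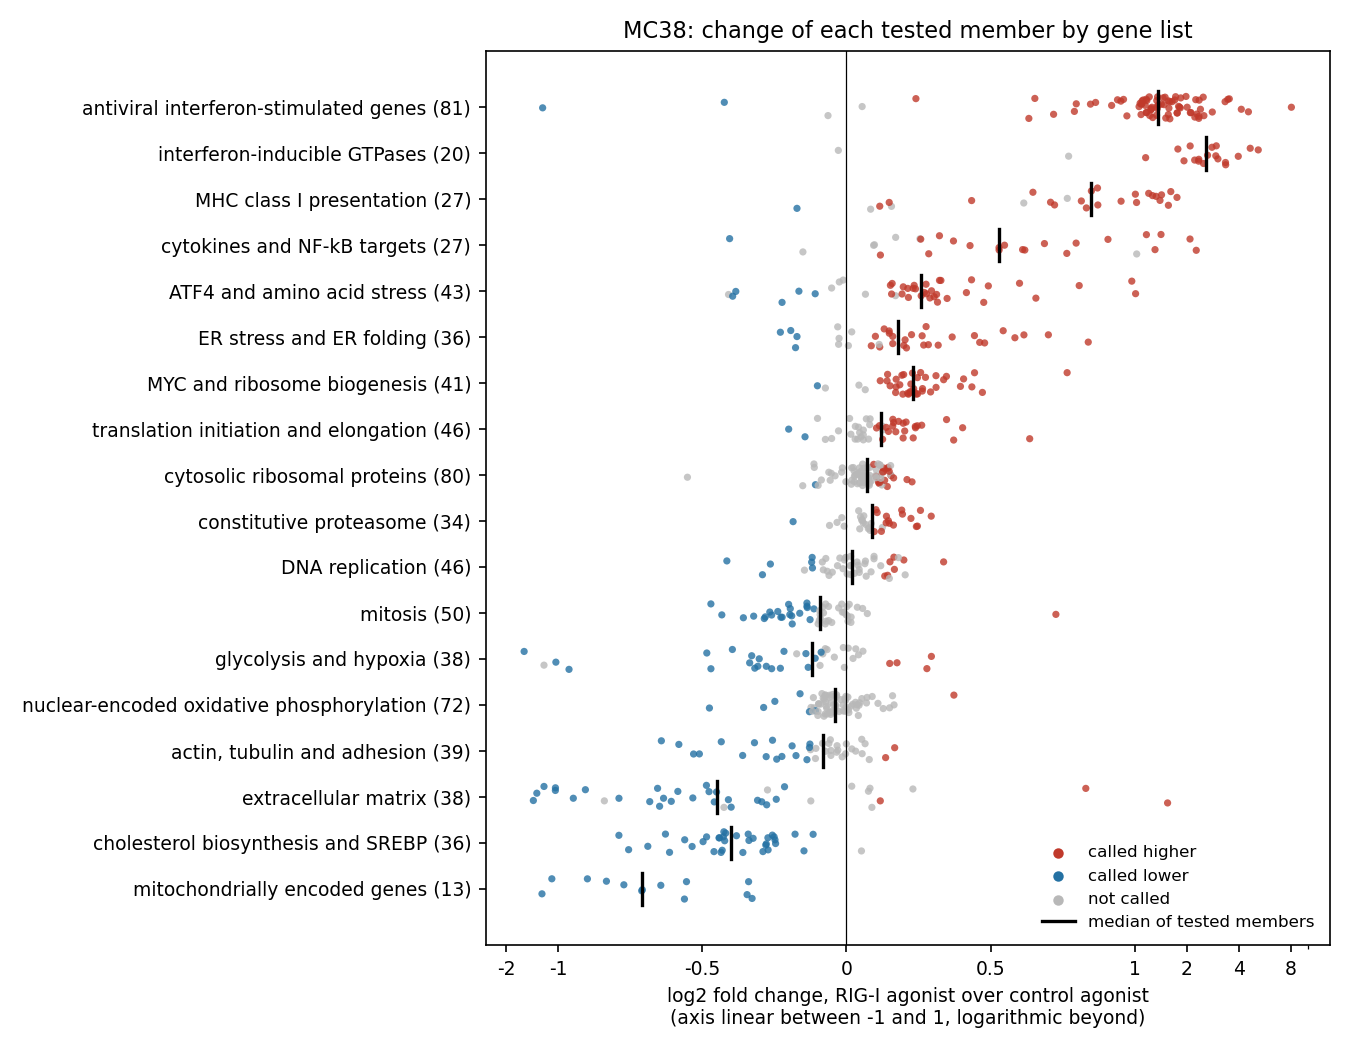
Log2 fold changes of the tested members of selected gene lists in MC38, RIG-I agonist over control agonist, 1 point per gene coloured by its call, with the list's median as a bar and the number tested in parentheses; the axis is linear between -1 and 1 and logarithmic beyond. The antiviral and GTPase lists lie well to the right, and the cholesterol, mitochondrially encoded and extracellular matrix lists lie to the left of 0.

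Outside the immune lists, small rises with the smallest p-values were led by genes with tight replicates. Tbrg1, which encodes a growth regulator that binds p53 pathway proteins, had 335 and 329 CPM with the RIG-I agonist and 169 and 168 CPM with the control agonist (log2 0.98, SE 0.036, adjusted p = 2.59e-15). Mlkl, the executor of necroptosis, had 279 and 283 CPM with the RIG-I agonist, against 145 and 145 CPM with the control agonist (log2 0.95). Il1rl1, the receptor of interleukin 33, had 378 and 376 CPM with the RIG-I agonist and 205 and 205 CPM with the control agonist (log2 0.88). In each the replicates of a group differed by a few CPM, far less than the groups did. Ascc3, a helicase of ribosome quality control, had 265 and 264 CPM with the RIG-I agonist and 140 and 146 CPM with the control agonist (log2 0.89). Other genes of this set of 15 were Ehd4, Trib3, Ogfr, Rnf114, Tor1aip2, Naa20, March5, Ddx24, Usp25 and Chmp4b, with log2 fold changes of 0.71 to 0.99. Every gene named here from this set except Ehd4 (log2 0.12) was called higher in CT26 too, where 19.8% of all genes were. The CT26 changes of the called ones ran from 0.22 for Trib3 to 1.52 for Il1rl1, with Mlkl at 1.07 and Rnf114 at 1.48. Whether rises of this set are part of the interferon response was not tested. In programmed cell death, 10 of 34 tested genes were higher and 5 lower, where 18.9% and 16.9% of all genes were, and 3 were lower without the second RIG-I agonist library. The inflammatory caspase gene Casp4 had 56.4 and 50.8 CPM with the RIG-I agonist, against 24.8 and 24.3 CPM with the control agonist (log2 1.11). Casp8 missed the threshold (log2 0.12, adjusted p = 0.154), as did the p53 target Cdkn1a (log2 0.11, adjusted p = 0.239).

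MYC and ribosome biogenesis genes made small rises in nearly every member, 37 of 41 tested with 1 lower, at a median of 0.23. Myc itself, a transcription factor of growth genes, had 153 and 147 CPM with the RIG-I agonist and 86.3 and 90.3 CPM with the control agonist (log2 0.77, SE 0.045, adjusted p = 1.21e-11). Its partner gene Max had 84.1 and 86.7 CPM with the RIG-I agonist, against 61.8 and 64.0 CPM with the control agonist (log2 0.44). Rrp9, which acts in ribosomal RNA processing, had 119 and 111 CPM with the RIG-I agonist and 85.1 and 79.9 CPM with the control agonist (log2 0.47). The member called lower was Cad, the first enzyme complex of pyrimidine synthesis (log2 -0.10), and its direction reversed with offsets for GC content and length. Its call was kept without the first control agonist library and lost without any 1 of the other libraries. The E-box CACGTG, the letters that MYC-MAX dimers bind, stood in 23.5% of the list's promoters (8 of 34), against 10.2% of all tested. Other lists ranged from 0 of 66 (antiviral) to 32.4% (lysosome and autophagy), with 26.3% for p53 targets, so a high share was not particular to this list. By size of change, the share was 13.7% in rises and 10.8% in falls under 1.5-fold. Of genes 1.5- to 2-fold higher, 16 of 133 promoters held it. The share was 4.55% in genes 2- to 4-fold higher, 0 of 57 in those over 4-fold higher and 3.66% in those at least 1.5-fold lower. Of 46 translation factors 23 were higher and 2 lower (median 0.12), led by Eif1a with 169 and 165 CPM with the RIG-I agonist and 111 and 104 CPM with the control agonist (log2 0.64). Of 80 cytosolic ribosomal protein genes 17 were higher and 1 lower (median 0.07), a higher share close to the 18.9% of all genes, and the higher count ranged from 6, without the second control agonist library or the first RIG-I agonist library, to 43, without the second RIG-I agonist library. Without the first RIG-I agonist library 6 were lower. The fit of all 14 libraries called 6 of the MYC and ribosome biogenesis list higher, and a test against a fold of 1.2 called 7.

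The amino acid stress list followed the same direction, 32 of 43 tested higher and 5 lower (3 without the second RIG-I agonist library), at a median of 0.26. Its genes respond to ATF4, a transcription factor whose translation increases when eIF2 alpha is phosphorylated. Ddit3, which encodes CHOP, had 56.9 and 56.2 CPM with the RIG-I agonist and 23.9 and 22 CPM with the control agonist (log2 1.29, adjusted p = 3.13e-12). A shorter annotated gene of the same symbol overlaps it and was not among those tested. Trib3, a pseudokinase induced by CHOP, had 191 and 191 CPM with the RIG-I agonist, against 93.7 and 99.3 CPM with the control agonist (log2 0.99, SE 0.043, adjusted p = 4.67e-14). Chac1, which degrades glutathione, had 40.8 and 35.5 CPM with the RIG-I agonist and 20.1 and 17.2 CPM with the control agonist (log2 1.01). Atf4 itself, looked up after the values were seen, had 516 and 496 CPM with the RIG-I agonist, against 358 and 361 CPM with the control agonist (log2 0.49). The members that fell included the neutral amino acid transporter gene Slc1a5, with 121 and 119 CPM with the RIG-I agonist and 154 and 158 CPM with the control agonist (log2 -0.38), and Slc38a2 (log2 -0.16). TGATGCAA, the letters ATF4-CEBP dimers bind, stood in 25.0% of the list's promoters (9 of 36) and in 0.711% of those of all tested genes. Chac1 and Nupr1, a stress-induced chromatin protein gene, are shown as the list's largest rises with these letters in the 200 bases before the RefSeq start, again with the letters or their reverse complement in capitals, on the strand of the gene. They lie at chr2:119351042-119351241 (plus strand) and chr7:126625471-126625670 (minus strand) of GRCm38.p6.
Chac1: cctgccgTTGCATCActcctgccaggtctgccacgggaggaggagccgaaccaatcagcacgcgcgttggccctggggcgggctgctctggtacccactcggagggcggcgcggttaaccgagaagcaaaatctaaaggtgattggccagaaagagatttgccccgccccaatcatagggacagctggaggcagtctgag
Nupr1: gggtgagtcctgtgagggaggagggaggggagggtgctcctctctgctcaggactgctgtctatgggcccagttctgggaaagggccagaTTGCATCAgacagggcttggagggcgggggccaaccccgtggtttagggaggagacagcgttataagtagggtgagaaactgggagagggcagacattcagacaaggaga
Nupr1 had 36.5 and 31.5 CPM with the RIG-I agonist and 27.7 and 25.8 CPM with the control agonist (log2 0.33). ER folding genes also rose in most members, 26 of 36 with 4 lower (median 0.18). Hspa5, the major ER chaperone BiP, had 3310 and 3400 CPM with the RIG-I agonist, against 2240 and 2240 CPM with the control agonist (log2 0.58, SE 0.033), and Sdf2l1 had 88.8 and 88.7 CPM with the RIG-I agonist, against 52.1 and 46.8 CPM with the control agonist (log2 0.84). In the fit of all 14 libraries 12 amino acid stress genes and 10 ER genes were called higher.

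Cholesterol and fatty acid synthesis genes fell in 35 of 36 tested members with none higher, at a median of -0.40, where 16.9% of all genes were called lower. Together they held 1.04% and 1.05% of counts with the RIG-I agonist and 1.41% and 1.45% with the control agonist. Scd2, a desaturase that makes monounsaturated fatty acids (chromosome 19, 44293674 to 44306864), had 1460 and 1500 CPM with the RIG-I agonist and 2510 and 2590 CPM with the control agonist (log2 -0.79, SE 0.034, adjusted p = 3.79e-14). Elovl6, a fatty acid elongase, had 147 and 148 CPM with the RIG-I agonist, against 251 and 248 CPM with the control agonist (log2 -0.76). Acss2, which makes acetyl-CoA from acetate, had 80.1 and 82.1 CPM with the RIG-I agonist and 124 and 127 CPM with the control agonist (log2 -0.63). The groups were far apart in each of these and the replicates close. Another member, looked up after the values were seen, was Srebf2, the transcription factor of the pathway, with 457 and 443 CPM with the RIG-I agonist and 656 and 672 CPM with the control agonist (log2 -0.56). DESeq2 called 33 members lower and a test against a fold of 1.2 called 20. The fit of all 14 libraries called 6.

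All 13 mitochondrially encoded genes tested fell, at a median of -0.71. They held 3.20% and 3.01% of counts with the RIG-I agonist and 5.0% and 4.79% with the control agonist. mt-Nd1, a subunit of respiratory complex I, had 1650 and 1540 CPM with the RIG-I agonist, against 3850 and 3690 CPM with the control agonist (log2 -1.24, adjusted p = 1.55e-16). mt-Co1, a subunit of complex IV, had 8920 and 8640 CPM with the RIG-I agonist and 13900 and 13600 CPM with the control agonist (log2 -0.64, SE 0.034). The smallest fall was that of mt-Cytb (log2 -0.33). Several of these genes have near copies among other annotated genes: mt-Co2, mt-Co3 and mt-Atp6 share 100% of their sampled 31-base words, mt-Nd3 97.3%, mt-Nd4l 91.9% and mt-Co1 63.4%, whereas mt-Nd1 shares 0% and mt-Cytb 6.2%. Among the nuclear genes of oxidative phosphorylation, 1 of 72 was higher and 6 lower, with a median of -0.04, and without the second RIG-I agonist library 5 were higher and none lower. Without the first RIG-I agonist library 12 were lower, and without the first control agonist library 2 were. Libraries were made from poly(A) RNA, and the fit of all 14 libraries called none of the 13 mitochondrial genes. Metabolic genes outside the mitochondrion fell in part, 19 of 38 in the glycolysis and hypoxia list with 4 higher (median -0.12). Car9, a carbonic anhydrase induced by hypoxia, had 2.52 and 2.10 CPM with the RIG-I agonist and 7.08 and 6.53 CPM with the control agonist (log2 -1.57), and Egln3, an oxygen-sensing hydroxylase gene, had 12.6 and 12 CPM with the RIG-I agonist and 26.1 and 24.1 CPM with the control agonist (log2 -1.03). Hexokinase gene Hk2 rose, with 113 and 113 CPM with the RIG-I agonist, against 93.3 and 90.9 CPM with the control agonist (log2 0.29).

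Extracellular matrix genes fell in 26 of 38 tested members with 3 higher, at a median of -0.45. Col6a1, a collagen VI chain, had 38.1 and 36.2 CPM with the RIG-I agonist and 94.0 and 91.9 CPM with the control agonist (log2 -1.33, SE 0.056, adjusted p = 3.49e-14). Lama5, a laminin chain of basement membranes, had 205 and 207 CPM with the RIG-I agonist, against 410 and 437 CPM with the control agonist (log2 -1.04, adjusted p = 2.13e-15). Hspg2, the basement membrane proteoglycan perlecan, had 187 and 194 CPM with the RIG-I agonist and 361 and 376 CPM with the control agonist (log2 -0.95). Collagen, laminin and proteoglycan genes thus fell together. Lama3, another laminin chain gene, went the other way, with 2.2 and 2.52 CPM with the RIG-I agonist and 0.708 and 0.921 CPM with the control agonist (log2 1.55, adjusted p = 0.00114). Of 39 actin, tubulin and adhesion genes 16 fell and 2 rose (1 without either control agonist library), among the falls the integrin gene Itgav, with 139 and 159 CPM with the RIG-I agonist and 221 and 229 CPM with the control agonist (log2 -0.58). Mesenchymal markers moved with this group, 7 of 12 tested lower and 2 higher (1 without the first control agonist or the second RIG-I agonist library), and the part of that in the matrix result was not tested. The fit of all 14 libraries called 13 matrix genes lower.

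Of 50 mitosis genes 22 fell and 1 rose, at a median of -0.09, where 16.9% of all genes fell and 18.9% rose. Mki67, the proliferation marker Ki-67, had 488 and 514 CPM with the RIG-I agonist, against 675 and 715 CPM with the control agonist (log2 -0.47, SE 0.037, adjusted p = 1.76e-09). Ccnb2, a mitotic cyclin, had 65.5 and 67.7 CPM with the RIG-I agonist and 84.0 and 87.2 CPM with the control agonist (log2 -0.36). Pttg1, which encodes securin, was the member that rose, with 45.8 and 41 CPM with the RIG-I agonist and 27.3 and 24.6 CPM with the control agonist (log2 0.73). Of 46 DNA replication genes 7 were higher and 6 lower, fewer than the share called among all genes, with a median of 0.02, and 4 were higher without the second RIG-I agonist library. The mitotic falls were small enough that a test against a fold of 1.2 called 2 of them, and the fit of all 14 libraries called 3. DESeq2 called 11 mitosis genes lower, and leaving out any 1 library also lowered the count.

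The immediate early genes, which answer growth signals within minutes, split. Fosb had 17.7 and 16.8 CPM with the RIG-I agonist and 46.5 and 46.4 CPM with the control agonist (log2 -1.43, SE 0.075, adjusted p = 1.51e-12). Fos had 28.8 and 29.6 CPM with the RIG-I agonist, against 61.3 and 65.5 CPM with the control agonist (log2 -1.11, adjusted p = 1.27e-11). Klf2, a transcription factor gene of quiescence, had 7.65 and 7.79 CPM with the RIG-I agonist and 15.8 and 16.7 CPM with the control agonist (log2 -1.07). Myc and Ier5 (log2 0.61) rose, and in all 14 of 40 were higher and 9 lower, where 18.9% and 16.9% of all genes were. Jun and Egr1, looked up after the values were seen, were also lower (log2 -0.53 and -0.68). Without the first control agonist library 9 members were called higher.

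**Figure D4:**
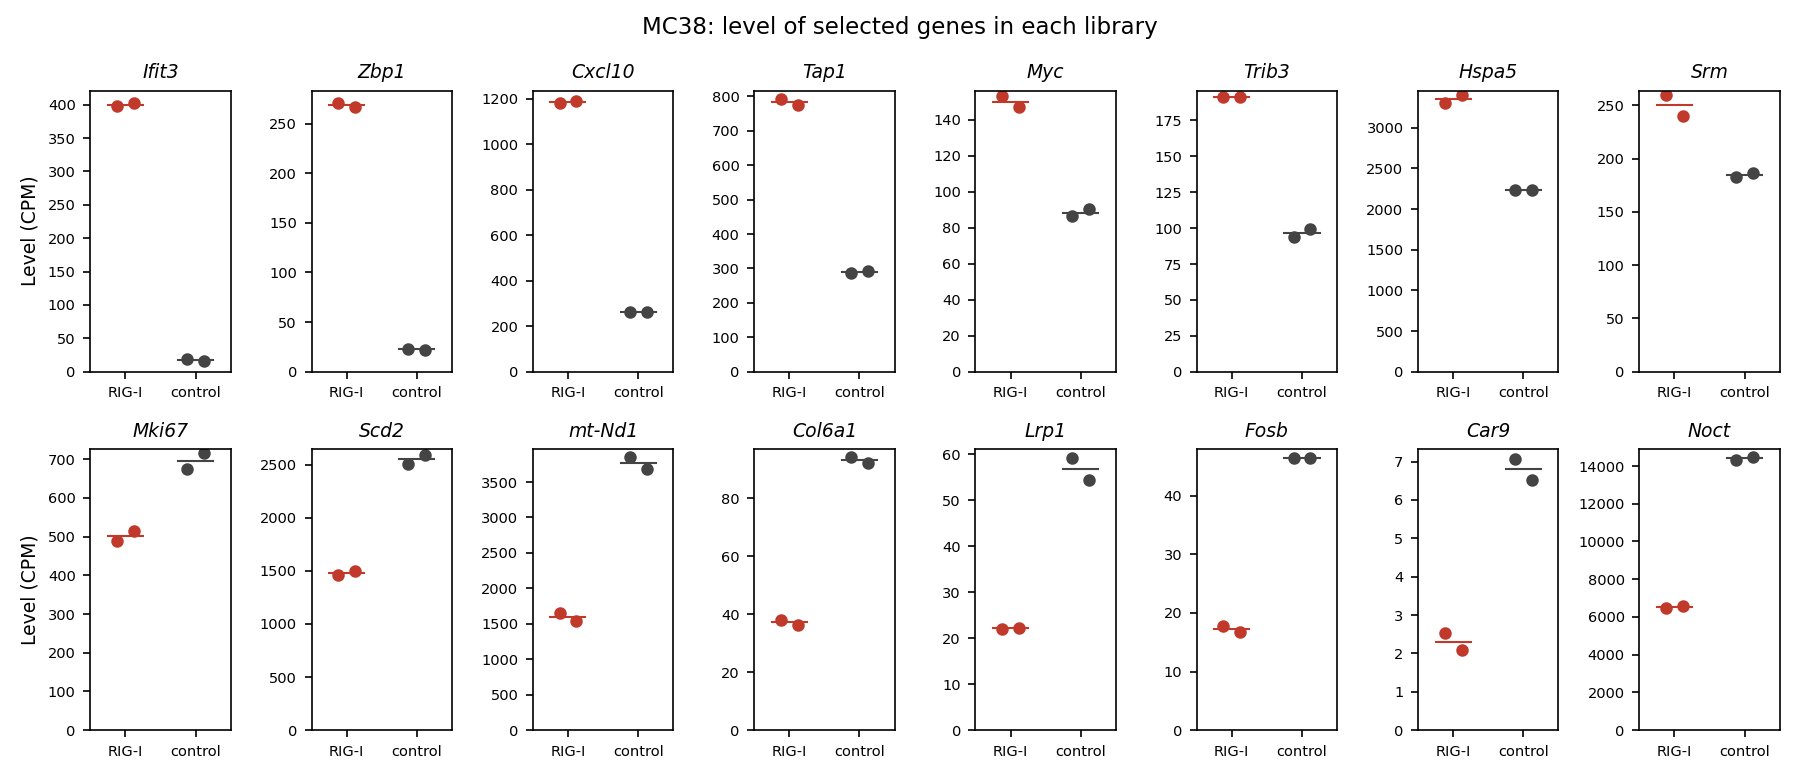
CPM of selected genes in each of the 4 MC38 libraries, RIG-I agonist libraries left of control agonist libraries, 1 panel per gene on its own axis from 0, with a line at the mean of each group. In each panel the points of a group lie close together, and the groups do not overlap, as for Cxcl10 (1180 and 1190 CPM with the RIG-I agonist against 263 and 262 CPM) and Fosb (17.7 and 16.8 CPM against 46.5 and 46.4 CPM).

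Small falls with the smallest p-values, outside the immune lists and under 2-fold, were mostly matrix, lipid and mitochondrial genes. Of this set of 15, Hspg2, Scd2, Elovl6 and mt-Co1 are described above. Pxdn, which encodes peroxidasin, an enzyme that cross-links collagen IV, had 235 and 225 CPM with the RIG-I agonist, against 406 and 413 CPM with the control agonist (log2 -0.83, SE 0.036, adjusted p = 4.02e-14). Col16a1, a collagen chain gene, had 89.8 and 92.4 CPM with the RIG-I agonist and 173 and 178 CPM with the control agonist (log2 -0.94). Both add to the matrix falls, with groups that did not overlap. Piezo1, a mechanosensitive ion channel, had 273 and 272 CPM with the RIG-I agonist, against 427 and 453 CPM with the control agonist (log2 -0.69), and Cd81, a tetraspanin, had 120 and 116 CPM with the RIG-I agonist, against 215 and 203 CPM with the control agonist (log2 -0.83). Further members were Rab3gap1 (log2 -0.90), Nptxr (log2 -0.73), mt-Nd2 (log2 -0.77), mt-Nd4l (log2 -0.83), D10Wsu102e and Gm48368 (log2 -0.99). Of these, Gm48368 shares 53.9% and Nptxr 17.1% of their 31-base words with other genes, and mt-Nd4l the share given above. Rab3gap1 and D10Wsu102e hold long stretches of Noct, described below, on the opposite strand, which the word share does not count. For Rab3gap1 the stretch has 1337 bases at 96.8% identity.

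The largest falls were in genes of low level. Of the genes whose mean level was 1 or more in log2 CPM and whose libraries did not overlap, Ccnb1ip1, a ubiquitin ligase gene known for its role in meiotic crossing over, fell most, with 1.95 and 1.79 CPM with the RIG-I agonist and 12.7 and 9.14 CPM with the control agonist (log2 -2.56, SE 0.21, adjusted p = 3.96e-09). Aqp1, a water channel, had 2.69 and 2.95 CPM with the RIG-I agonist and 9.14 and 8.98 CPM with the control agonist (log2 -1.67). Cd38, an ectoenzyme that consumes NAD, had 1.95 and 1.21 CPM with the RIG-I agonist, against 5.47 and 4.99 CPM with the control agonist (log2 -1.78). Each of these is below 15 CPM in all libraries. Lrp1, a large endocytic receptor, had 22.1 and 22.2 CPM with the RIG-I agonist and 59.3 and 54.4 CPM with the control agonist (log2 -1.36, adjusted p = 1.93e-12), and Plat, tissue plasminogen activator, had 6.27 and 7.26 CPM with the RIG-I agonist, against 17.7 and 18.3 CPM with the control agonist (log2 -1.39). The 9 other genes with a symbol in this set were Fras1, Car9, Gm28042, Gm1821, Fosb, Gm49358, Trpc6, Rgs11 and Col6a1, with log2 fold changes of -1.60 to -1.33. Trpc6 holds a stretch of 269 bases at 95.5% identity with Noct, described below. Gm28042, Gm1821 and Gm49358 share at least 89.9% of their 31-base words with other genes, and the calls of Gm49358 and Trpc6 were lost without the second library of either group. Genes at least 1.5-fold lower had a median GC content of 52.0% and a median transcript length of 3762 bases, against 49.4% and 3358 bases over all tested, and the 109 of them at a mean log2 CPM of 5 or more had a median length of 5296 bases. Genes at least 2-fold higher had a median GC content of 47.1% and a length of 2656 bases, and 36.9% of them had 10% or more shared sequence, against 16.4% over all tested.

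Noct, a circadian gene (chromosome 3, 51224447 to 51251644), held more counts than any other gene in both control agonist libraries. It had 6480 and 6570 CPM with the RIG-I agonist and 14300 and 14500 CPM with the control agonist (log2 -1.14, SE 0.034, adjusted p = 6.45e-17). Its transcripts share long stretches with those of other genes: 3243 bases at 98.5% identity with Slc38a6, which fell too (log2 -1.10), and 3497 bases at 95.5% with a transcript of D10Wsu102e (log2 -0.80), both on the opposite strand. In all, 13 tested genes including Noct hold a stretch of at least 200 bases at 95% identity or more with Noct, a set put together after the values were seen. Of these 12 fell and none rose, from Abhd2 at -0.19 to Olfr11 at -1.50, and Patj was not called. Rab3gap1 and Trpc6, named among the falls above, belong to this set. The group held 0.969% and 0.990% of all counts with the RIG-I agonist, against 2.03% and 2.06% with the control agonist. Which of these loci the reads came from cannot be told apart from the deposited values. The library kit was stranded, and whether the counting used the strand is not given in the sources used here.

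Most large MC38 rises were also called in CT26, as were some of the falls. The 3 comparisons use separate control libraries. Of 252 genes at least 2-fold higher in MC38, 233 were tested in CT26 and 215 of those (92.3%) were higher there, 7.82% of CT26's own 2751 higher genes, where 19.8% of all CT26 genes were called higher and 18.6% lower. In E0771, 212 were tested and 130 (61.3%) were higher, which is 72.2% of E0771's 180 higher genes, where 1.53% were called higher and 0.0256% lower. Of the MC38 genes higher by under 2-fold, 756 of 2050 (36.9%) were also higher in CT26 and 159 were lower. Of the genes at least 1.5-fold lower in MC38, 146 of 346 (42.2%) were lower in CT26 and 43 were higher. E0771 called only 3 genes lower in all, none of them among these, and its replicates were more widely spread, with a fitted dispersion of 0.041 against 0.000927 in MC38.

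**Figure D5:**
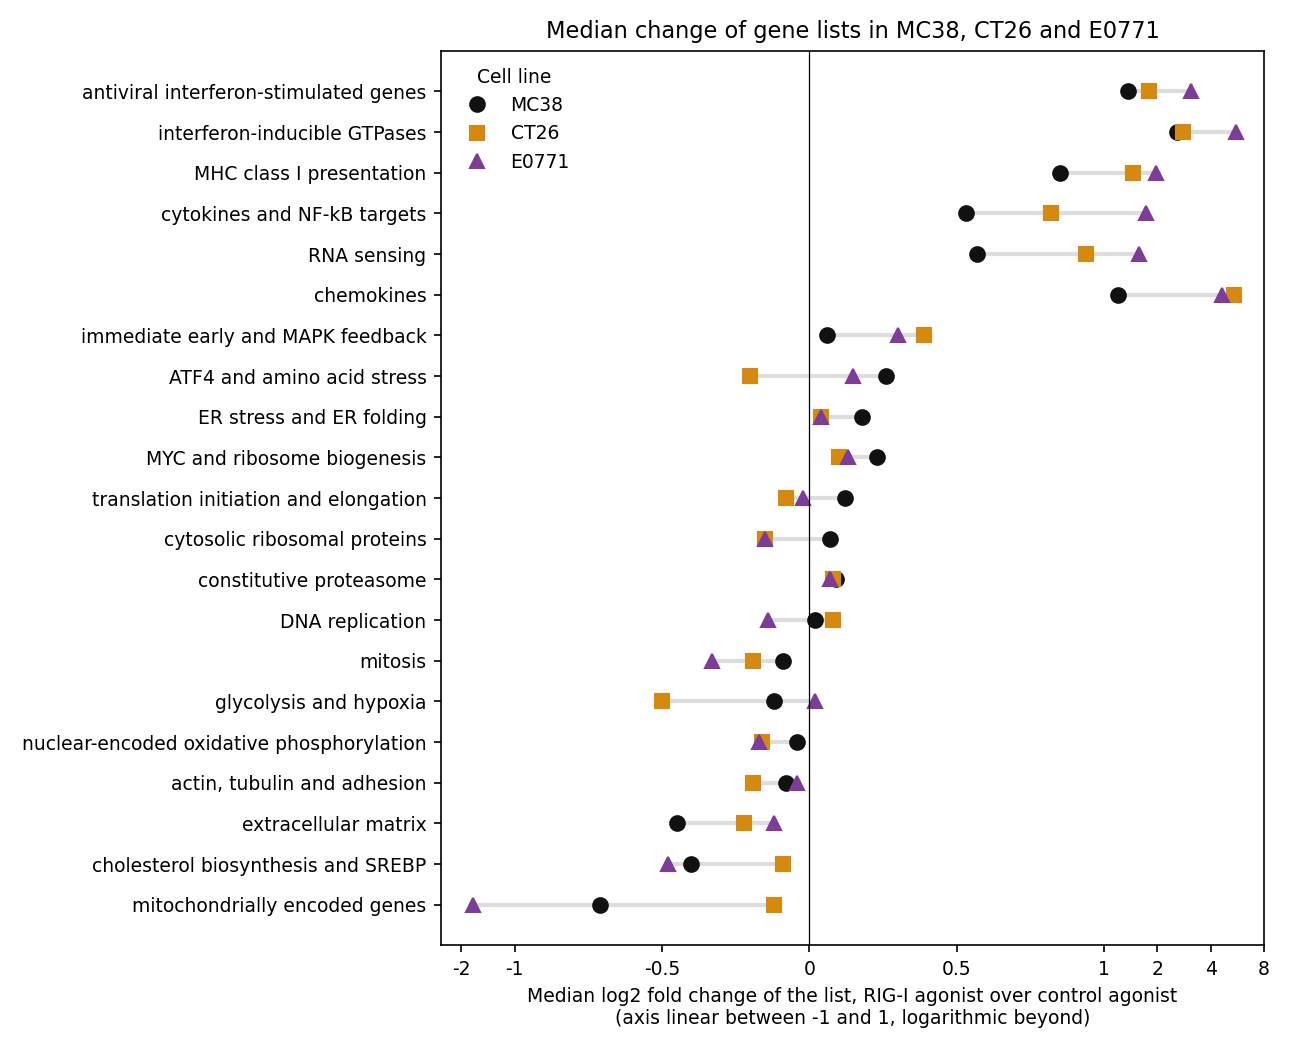
Median log2 fold change of gene lists in MC38, CT26 and E0771, RIG-I agonist over control agonist, 1 row per list; the axis is linear between -1 and 1 and logarithmic beyond. Members are those tested in MC38, and the medians of CT26 and E0771 leave out members not tested there. For chemokines that is 14 genes in MC38, 11 in CT26 and 10 in E0771. The MC38 medians lie below those of CT26 and E0771 for the 6 immune lists shown. They lie above them for the amino acid stress (0.26 against -0.20 and 0.15) and ribosome biogenesis lists (0.23 against 0.10 and 0.13).

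Tested as a difference between lines, in 1 fit of all 14 libraries with a shared spread, the MC38 effect was above the CT26 effect in 267 genes (1.82%) and below it in 290 (1.98%). Against E0771 it was above in 44 (0.3%) and below in 265 (1.81%). Without 1 MC38 library the counts against CT26 were 55 to 74 and 112 to 123, and those against E0771 9 to 13 and 156 to 166. With the 2 lines alone in the fit they were 1626 and 910 against CT26, and 2 and 85 against E0771. Effects given per line come from the fit of that line alone, and differences from the shared fit. Most interferon-stimulated genes that differed had the smaller effect in MC38. The Cxcl10 effect was 2.18 on the log2 scale in MC38 and 5.46 in CT26, with a tested difference of -3.23, and the difference from E0771 was -3.33 (adjusted p = 2.9e-07 and 3.46e-06). The Rsad2 effect was 1.76 in MC38, against 4.03 in CT26 and 5.39 in E0771, and the Ccl5 effect 1.47, against 6.44 and 5.58. Of the antiviral list, 18 members had a smaller effect in MC38 than in CT26 and 3 a larger one, and 58 had a smaller effect than in E0771 with none larger. Zbp1, Dhx58 and Irf7 were not called different from CT26, with differences that missed the threshold (adjusted p = 0.459, 0.524 and 0.776). Ifit3 rose more in MC38 than in CT26 (4.55 and 3.79, adjusted p = 0.00939).

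Between MC38 and CT26 some genes and lists moved in opposite directions, and others in the same direction by different amounts. Fos fell in MC38 (-1.11) and rose in CT26 (3.28), with a difference of -4.34 (adjusted p = 0.00129), and Plat (-1.39 and 1.02) and Fras1 (-1.60 and 3.86) did likewise (adjusted p = 0.000158 and 0.0332). In the amino acid stress list 16 of 43 members had a larger effect in MC38 than in CT26 and none a smaller one: 32 were higher and 5 lower in MC38, whereas 9 were higher and 23 lower in CT26. For ER folding 5 members, and for translation factors 5, had a larger effect in MC38 than in CT26, with none smaller. The ER folding list had medians of 0.18 in MC38 and 0.04 in CT26, and the translation factors 0.12 and -0.08. Sqstm1, an autophagy receptor gene on the stress list of NRF2, rose in MC38 with 1150 and 1110 CPM with the RIG-I agonist and 829 and 830 CPM with the control agonist (log2 0.45), against -0.12 in CT26 (adjusted p of the difference 0.00602). The cholesterol list had a median of -0.40 in MC38, -0.09 in CT26 and -0.48 in E0771, and no member was called different from either line. In CT26 alone 4 of its members were higher and 12 lower. The mitochondrially encoded list had medians of -0.71, -0.12 and -1.71, and none of its members was called different either. In CT26 alone 3 of its 13 members were higher, among them mt-Co1 (log2 0.31), and 1 was lower. On simulated data the test of differences found 6% of 1.5-fold differences from CT26 and 8% of those from E0771. A missing call therefore says little about differences of that size. The shared spread is wider than that of MC38 alone.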

How the data were processed

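RNA of MC38 cells was measured as stranded poly(A) libraries, 2 per agonist. The authors deposited 1 table per cell line of estimated counts for 34866 Ensembl genes. Salmon, DESeq2 and GRCm38 are named, without roles, per the submitters' processing notes, and versions and annotation are not given in the sources used here. The estimated counts were rounded to whole numbers. Identifiers were named from GENCODE M21 (34652 matched, 214 did not), and positions are 1-based on GRCm38.

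The 4 MC38 libraries, RIG-I agonist over control agonist, were tested in edgeR 4.0.16 (R 4.3.3; robust quasi-likelihood F test, TMM scaling, filterByExpr at a minimum count of 10), with Benjamini-Hochberg adjustment over 12387 genes. Genes with an adjusted p under 0.05 were called. CPM, counts per library size scaled by TMM, give levels, and SE is the standard error of the log2 fold change. Scripts were tested on simulated data with 200 changed genes. For MC38, 54% of 1.25-fold, 68% of 1.5-fold and 92% of 2-fold changes were recovered. Of the genes called there, 9.4% had not been changed. Differences between lines were interactions in 1 edgeR fit of all 14 libraries in 6 groups. Alternatives included DESeq2 (1.42.0), other scalings and filters, offsets for GC content and length, a replicate block and leaving out each library.

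A count of 0 allows 3 counts, which is 0.158 to 0.243 CPM per library and 0.105 CPM over the control agonist group. Count ratios carry exact 95% intervals, and both cover counting error only. Shared sequence was the share of sampled 31-base words found in other genes on the same strand, and long stretches were sought on both strands with blastn 2.17.0. The groups and the 37 gene and 5 marker lists were chosen with earlier results of these data known. The genes named were 26 fixed ones, the 15 largest rises and falls with a mean log2 CPM of 1 or more, the 15 rises and 15 falls with the smallest p outside the immune lists among those under 2-fold with a mean log2 CPM of 5 or more, and up to 4 of each list in each direction. Exceptions are marked, and some genes that these rules take are not reported here. List counts are descriptions, with no test of a list.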

Additional observations from a re-analysis of the deposited data

Results flagged for a closer look

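These are effects of the RIG-I agonist over the control agonist that differed between MC38 and another line by the interaction test of edgeR (adjusted p under 0.05 over all genes), on the log2 scale and given as the MC38 effect minus that of the other line. Only the 26 fixed genes, and named genes called in opposite directions in both lines, were considered.

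Against CT26, interferon and chemokine genes had the smaller effect in MC38: Ifna4 differed by -6.50, Ccl5 by -4.90, Il6 by -3.97, Cxcl10 by -3.23, Mx1 by -2.93, Rsad2 by -2.22, Cd274 by -1.52, Ifih1 by -1.15 and Ifit1 by -1.01. The Ifna4 value rests on few MC38 counts, and Mavs differed the other way, by 0.38. Among the named genes, those called in opposite directions in the 2 lines and called different were Fras1 (-5.40), Fos (-4.34), Plat (-2.37), Ddb2 (-1.31), Ifitm1 (-0.84) and Clk4 (-0.57), which fell in MC38 and rose in CT26. Ndrg1 (0.82), Eif3c (0.58) and Ezr (0.51) rose in MC38 and fell in CT26. Over all genes, 166 of 2283 higher in MC38 were called lower in CT26. Of 1946 lower in MC38, 146 were called higher in CT26. The MC38 calls of Ddb2 and Ezr were lost without single libraries.

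Against E0771 every one of the flagged effects, all from the 26 fixed genes, was smaller in MC38. Over all genes tested, 44 effects were called larger in MC38 and 265 smaller. Zbp1 differed by -4.80, Ccl5 by -4.08, Rsad2 by -3.62, Ifit1 by -3.55, Cxcl10 by -3.33, Mx1 by -3.17, Isg15 by -3.13 and Irf7 by -2.83. Smaller differences were those of Ifih1 (-2.30), H2-K1 (-1.68), Cd274 (-1.62), Tap1 (-1.48), Ddx58 (-1.47), Cdkn1a (-1.31), Dhx58 (-1.12) and Nlrc5 (-0.96). The shared spread of that fit is narrower than that of E0771 alone, with dispersions of 0.0149 and 0.041, and wider than that of MC38 alone, with 0.000927.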

How the results depend on the processing

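The MC38 counts of 2338 higher and 2099 lower genes moved by over 1.5 times under 3 alternatives: DESeq2 gave 1268 and 988, a test against a fold of 1.2 gave 613 and 546, and the fit of all 14 libraries gave 624 and 374. Leaving out 1 library gave 1867 to 2064 higher and 1566 to 1753 lower genes. Other scalings, filters, GC content and length offsets, and the added restriction to genes with under 10% shared sequence, chosen after seeing the data, kept both counts within 1.5 times. Of 275 named genes, 132 kept direction and call under every alternative run, and the call was lost by 51 with DESeq2, 101 with the fold test, 133 in the fit of all 14 libraries and 16 to 36 without 1 library. Cad reversed, from -0.10 to 0.02, with GC content and length offsets, with or without the replicate block.

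No label names a pairing of the libraries. Their column names carry matching numbers, M-C2 with M-R2 and M-C4 with M-R4, and what these stand for is not given in the sources used here. Deviations of same-numbered libraries correlated at -0.0179 over 12387 genes. With the replicate block 2585 genes were higher and 2341 lower.

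The MC38 minus CT26 effect, called above in 267 genes and below in 290, gave 1031 and 785 with the replicate block, 1626 and 910 with the 2 lines only, and 55 to 74 and 112 to 123 without 1 MC38 library. The MC38 minus E0771 effect, 44 and 265, gave 253 and 627 with the block, 2 and 85 with the 2 lines only, and 9 to 13 and 156 to 166 without 1 library. Of the 19 differences from CT26 that were listed, all were called with the 2 lines only and 9 or 10 without 1 MC38 library. Of the 16 from E0771, 10 and 12 or 13 were. Low counts limit the lowest genes, and the causes were not tested.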

Other observations

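Other gene lists had members called in both directions in MC38, in several of them at shares near the 18.9% of all genes called higher and the 16.9% called lower, and nothing particular to those lists is read from their counts. With the RIG-I agonist 10 of the 44 tested lysosome and autophagy genes were higher and 12 were lower. Grn, which encodes progranulin, had 1100 and 1070 CPM with the RIG-I agonist and 758 and 764 CPM with the control agonist (log2 0.51, adjusted p = 5.1e-11 in edgeR's test), and Npc2, a cholesterol carrier of the lysosome, had 277 and 272 CPM with the RIG-I agonist, against 188 and 181 CPM with the control agonist (log2 0.57). Lamp1 and Psap, a lysosomal membrane protein gene and a saposin precursor gene, fell alike (log2 -0.34 each). Of 25 NRF2 and metal stress genes 7 were higher and 11 lower, or 7 lower without the first control agonist library: Keap1, the inhibitor of NRF2, had 89.5 and 94.1 CPM with the RIG-I agonist and 66.5 and 66.9 CPM with the control agonist (log2 0.47), and Nqo1, a quinone reductase, had 70.5 and 67.7 CPM with the RIG-I agonist, against 99.4 and 93.4 CPM with the control agonist (log2 -0.49). Of 24 p53 targets 9 were higher, among them Gadd45a (log2 0.90), and 4 were lower, among them Ccng1 (log2 -0.33). Of 50 splicing genes 21 were higher and 7 lower, with a median of 0.08, and no splicing gene passed a test against a fold of 1.2. Chromatin modifier genes had 7 of 49 higher and 7 lower, or 4 lower without the second RIG-I agonist library, and the lower ones included Dnmt3a, a DNA methyltransferase gene with 18.6 and 19.5 CPM with the RIG-I agonist and 27.5 and 28.9 CPM with the control agonist (log2 -0.56).

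Of 36 YAP, TGF-beta and SRF targets 9 were higher and 8 lower, near the shares of all genes, and 4 were lower without the second control agonist library and 5 without the second RIG-I agonist library. Amotl2 and Ajuba, which act in Hippo signalling, rose (log2 0.82 and 0.53), while the actin-binding genes Vcl and Flna fell (log2 -0.49 and -0.28). Of 27 genes of the tricarboxylic acid cycle and its neighbours 3 were higher and 8 lower, or 5 lower without the second control agonist library. Acod1, which makes the antimicrobial metabolite itaconate, had 4.48 and 4.79 CPM with the RIG-I agonist and 0.965 and 0.845 CPM with the control agonist (log2 2.34, adjusted p = 1.25e-06), and Idh1 had 94.3 and 89.0 CPM with the RIG-I agonist and 128 and 126 CPM with the control agonist (log2 -0.47). Heat shock genes had 4 of 19 higher and 3 lower, about the shares of all genes, with Hspa9, the mitochondrial member, at 0.31 and Hspa8, the cytosolic one, at -0.17; Hspa8 shares 48.3% of its 31-base words with other genes. Of 19 WNT and Notch genes none was higher and 6 were lower, led by Fzd2 (log2 -0.66). Of 42 DNA repair genes 5 were higher and 8 lower, with 3 higher without the second RIG-I agonist library and 5 lower without the second control agonist library, and of 6 MHC class II genes 1, Ctss, was higher.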
